A study of Mus musculus with 721 samples.

Results

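The cells described here were the T-expressing cells of mouse embryos at the onset of gastrulation, set apart by whether they also expressed Mesp1. They were chosen from measured values. A cell of an embryo titled E6.5 or E6.75 entered with T of at least 10 CPM (the usual depth-scaled unit, in which a gene's counts are divided by all counts of its cell), and was called Mesp1-positive with Mesp1 of at least 10 CPM and Mesp1-negative below it. Of 721 cells in the series, 250 came from 13 embryos of this age, and 59 of these passed the limit for T. Mesp1-positive cells numbered 31 and Mesp1-negative cells 28. Because T and Mesp1 chose the cells, their values are given as a description and without a test.

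The study followed mouse embryos from the inner cell mass to early gastrulation by single-cell RNA sequencing. All embryos compared here were wild type, of the C57Bl/6Babr strain and untreated. By the study's methods, E6.5 embryos were staged by eye as early streak. Their extra-embryonic parts were removed before the embryonic ectoderm was taken apart into cells. The methods do not mention embryos of E6.75, so how the embryos titled E6.75 were staged is not known. Cells were picked into wells, some of which the titles label double, and the mRNA of each well was captured and amplified by the G&T-seq protocol with SMART-seq2 chemistry. Embryos are told apart by age, by plate name where the title gives one (P1 to P3) and by number, and embryos, not cells, are the replicates. Nothing in the labels gives a Mesp1 class, and the study's methods say that the dissection could shift the share of streak cells obtained from an embryo.

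T, also called Brachyury, is the T-box transcription factor of the primitive streak, the groove through which epiblast cells leave the epithelium to form mesoderm and endoderm. Mesp1 is a basic helix-loop-helix factor switched on as cells leave the streak, and its descendants include most of the heart. Mesp2 is its close relative and neighbour in the genome, and Snai1 is a zinc-finger repressor of E-cadherin that takes part in the passage from epithelium to mesenchyme.

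On build GRCm38, T lies on chr17:8434423-8442496 on the plus strand, Snai1 on chr2:167538195-167542814 on the plus strand, Mesp1 on chr7:79792241-79793788 on the minus strand and Mesp2 on chr7:79810727-79813439 on the plus strand. Mesp1 and Mesp2 are thus transcribed away from each other, with 16939 bases between the genes. The longest stretch of bases that the 1275-base transcript of Mesp1 shares with the 1944-base transcript of Mesp2 is 42 bases. The promoters of the pair are shown because their transcripts were found together in most cells of the embryo that supplied most Mesp1-positive cells. Both are RefSeq sequences of build GRCm38.p6, from 250 bases before to 50 bases after the start used there. They lie at chr7:79793541-79793840 on the minus strand for Mesp1 and chr7:79810477-79810776 on the plus strand for Mesp2. For Mesp1 that start differs from the one given above. On the minus strand the span above begins at 79793788, so most of the Mesp1 window lies inside that span and not before it. Capitals mark matches on either strand to CANNTG, the E-box bound by basic helix-loop-helix factors, or to TCACAC, a part of the site bound by T-box factors.
Mesp1: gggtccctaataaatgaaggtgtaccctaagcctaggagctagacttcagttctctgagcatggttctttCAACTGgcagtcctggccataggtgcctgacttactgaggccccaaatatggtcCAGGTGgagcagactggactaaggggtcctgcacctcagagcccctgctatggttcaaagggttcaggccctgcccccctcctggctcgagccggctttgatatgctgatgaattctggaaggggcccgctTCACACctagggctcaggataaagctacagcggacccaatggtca
Mesp2: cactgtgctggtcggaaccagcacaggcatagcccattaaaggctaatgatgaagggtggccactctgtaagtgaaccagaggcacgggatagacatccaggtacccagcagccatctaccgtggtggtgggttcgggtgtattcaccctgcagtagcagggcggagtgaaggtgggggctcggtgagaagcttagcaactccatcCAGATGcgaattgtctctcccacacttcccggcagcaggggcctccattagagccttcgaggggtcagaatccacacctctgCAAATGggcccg
Mesp1 held 2 matches to CANNTG and 1 to TCACAC, and Mesp2 held 2 to CANNTG and none to TCACAC. No match overlapped another. The promoter of T held 3 matches to CANNTG and that of Snai1 held 1, and neither held TCACAC. Of 32851 promoters of this length, 72.3% held CANNTG and 14.5% held TCACAC on either strand, so that a match is common and is only a description of the letters.

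Most Mesp1-positive cells came from one embryo. Of the 31, 24 (77.4%) came from E6.5 embryo 2, whose title has no plate name. This embryo gave 32 cells, of which 24 passed both limits, none passed the limit for T alone, and 8 were below both. The share of T cells with Mesp1 was 24 of 24 there, with an exact 95% binomial interval of 85.8 to 100%. In E6.5 P1 embryo 3 it was 3 of 8 (37.5%, 8.52 to 75.5%), in E6.75 embryo 1 it was 1 of 11 (9.09%, 0.230 to 41.3%), and in E6.75 embryo 2 it was 3 of 12 (25%, 5.49 to 57.2%). These intervals cover counting error only. E6.5 embryo 1, P1 embryo 2, P2 embryo 5 and P2 embryo 6 gave 1 Mesp1-negative T cell each, and the other 5 embryos gave no T cell. Of the 59 T cells, 1 came from a well labelled double, the Mesp1-negative cell of E6.5 embryo 1, and so did 4 of the 8 cells of E6.5 embryo 2 below both limits. The titles do not say whether E6.5 embryos 1 and 2 without a plate name are embryos 1 and 2 of plate P1, and they were counted as separate embryos here. Counted so, E6.5 embryo 2 had no Mesp1-negative T cell to set its Mesp1-positive cells against (joined with P1 embryo 2 it would have 1), and for most Mesp1-positive cells the class and the embryo cannot be told apart.

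**Figure D1:**
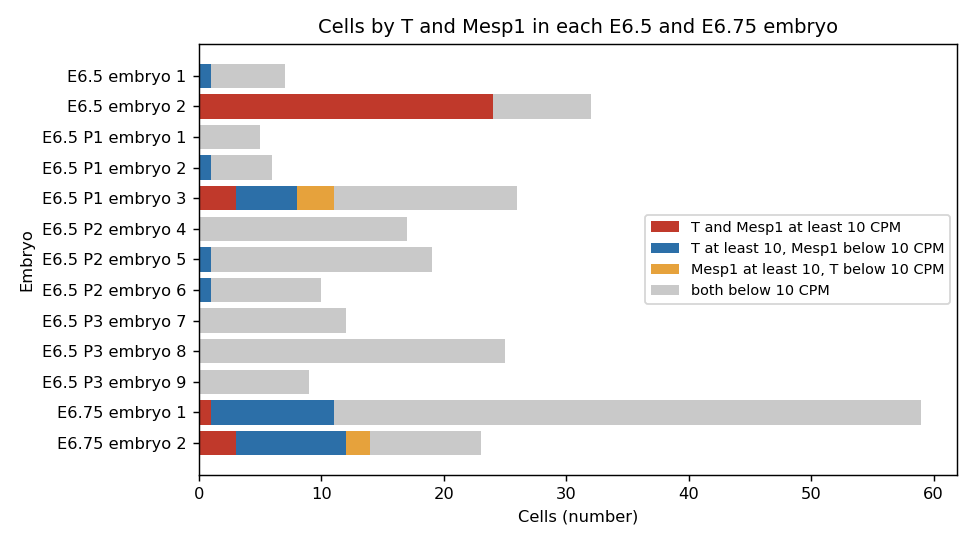
Number of cells (x axis) in each of the 13 embryos (y axis), coloured by whether T and Mesp1 reached 10 CPM. E6.5 embryo 2 holds 24 of the 31 cells with both genes and no cell with T alone, whereas the 28 cells with T alone are spread over 7 embryos.

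Levels of T overlapped between the classes in the embryos that had both. In E6.5 P1 embryo 3 the 3 Mesp1-positive cells had 47.6, 84.2 and 235.5 CPM of T, and the 5 Mesp1-negative cells had 25.2, 38.7, 48.5, 65.8 and 135.5 CPM. In E6.75 embryo 2 the Mesp1-positive cells had 25.9, 40.4 and 66.6 CPM, and the 9 Mesp1-negative cells ranged from 21.9 to 254 CPM with a median of 56.3. The only Mesp1-positive cell of E6.75 embryo 1 had 236 CPM, and the 10 Mesp1-negative cells ranged from 16.1 to 247 CPM with a median of 41.5. E6.5 embryo 2 had from 13.9997 to 299 CPM of T with a median of 118.9.

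Mesp1 was far more abundant in E6.5 embryo 2 than in most other cells that passed the limit. It ranged there from 12.3 to 879 CPM with a median of 326. In E6.5 P1 embryo 3 it stood at 15.9, 16.8 and 123.5 CPM, and in E6.75 embryo 2 at 10.1, 20.7 and 22.2 CPM, from 3, 9 and 6 reads. The cell of E6.75 embryo 1 had 493 CPM. Of the 28 Mesp1-negative cells, 26 had no read of Mesp1 and 2 had 1 read. The cells just inside and just outside the limit lay close together, at 10.1 CPM from 3 reads and at 8.93 CPM from 1 read, both in E6.75 embryo 2. For T the nearest cells stood at 11.6 CPM from 9 reads inside and 9.42 CPM from 3 reads outside. In 4 Mesp1-negative cells, 3 reads would have exceeded 10 CPM, so their depth could not show a level near the limit.

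**Figure D2:**
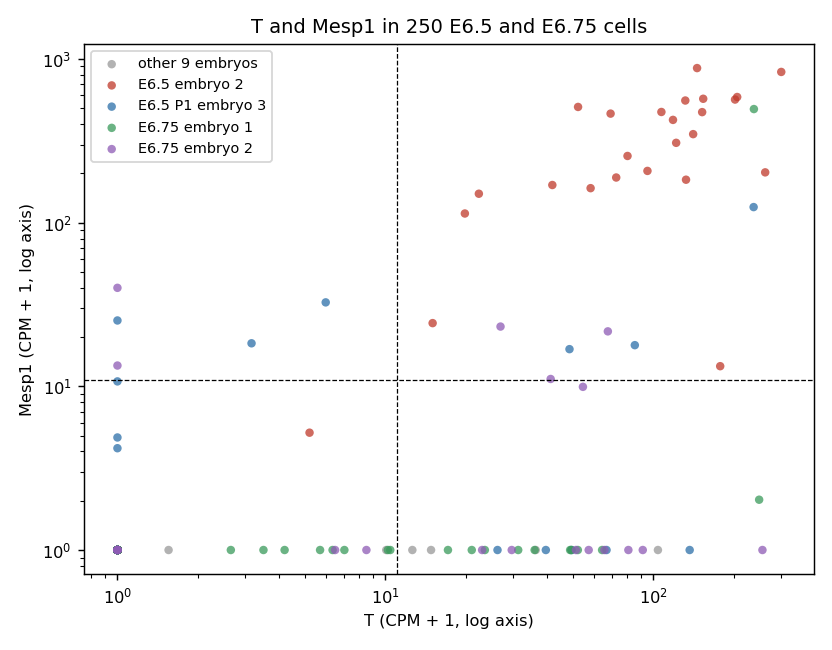
T (x axis) and Mesp1 (y axis) in the 250 cells, both as CPM plus 1 on log axes, with dashed lines at the limits of 10 CPM and colours for the 4 embryos with Mesp1-positive T cells. Cells of E6.5 embryo 2 fill the upper right, up to 879 CPM of Mesp1, and 6 of the 7 others above both limits lie lower, at 10.1 to 123.5 CPM, with 1 at 493 CPM.

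Depth and gene detection differed between embryos. Mesp1-positive cells held 106454 to 2272997 counts (median 435453) with 4350 to 10575 genes detected (median 9368), and Mesp1-negative cells 66896 to 1632502 counts (median 586020) with 5654 to 9286 genes (median 7630.5). The 3 Mesp1-positive cells of P1 embryo 3 had only 4350 to 6238 genes and a single cell gave 64.6% of their counts. A single cell likewise gave 43.4% of the counts of the 3 Mesp1-positive cells of E6.75 embryo 2. All 10 streak and all 8 epiblast markers were read with Mesp1, and without it 8 of the 10 and all 8, with Mesp2 and Tbx6 at 0. Visceral endoderm markers (13 genes, summed) ranged from 1349 to 41453 CPM with Mesp1 (median 4206) and from 411 to 50894 CPM without (median 2310). They exceeded 20000 CPM in 5 cells, of which 1 was Mesp1-positive, in E6.5 embryo 2, and 4 were Mesp1-negative, while the other cells had at most 14569 CPM. Of those 4, the cell of P1 embryo 2 had 36.5 CPM of Pou5f1 and 1438 CPM of Mixl1 and that of P2 embryo 6 had 12.3 and 2023 CPM. Neither cell was in the sums of at least 3 cells compared below. The others, both of E6.75 embryo 2, had 30699 and 50894 CPM of the endoderm markers and were in its Mesp1-negative sum. Their epiblast markers summed to 1822 and 1508 CPM, where the median of Mesp1-negative cells was 3694 CPM. The Mesp1-positive cell had 41453 CPM of the endoderm markers and 1461 CPM of the epiblast markers, with 3 reads of T and 5 of Mesp1. It was kept in the sum of E6.5 embryo 2. The label of streak cell is uncertain for all 5. Summed extraembryonic ectoderm markers (5 genes) reached at most 85.9 CPM with Mesp1 and 129.1 CPM without, blood and endothelial markers (7 genes with a row) 67.3 and 35.4 CPM, and neural markers (4 genes) 48.4 and 83.5 CPM. The neural marker Sox1 was at 0 in all 59 cells, Pecam1 and Fli1 of blood and endothelium were at 0 in all of them too, and the part of these marker levels in the differences below was not tested.

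Among the T cells, Mesp2 was read in Mesp1-positive cells and in no Mesp1-negative cell. In E6.5 embryo 2 it ranged from 0 to 327 CPM with a median of 28.8, reached 10 CPM in 20 of 24 cells and was at 0 in 1 cell. The Mesp1-positive cell of E6.75 embryo 1 had 63.2 CPM. Mesp2 was at 0 in the other 6 Mesp1-positive cells and in all 28 Mesp1-negative cells, where 0 of 28, taken as at most 3 cells, allows a share of cells with a read of up to 10.7% by counting error alone, with the cells of an embryo not independent. In the 8 cells of E6.5 embryo 2 below both limits it ranged from 0 to 0.982 CPM. A Mesp1-positive cell of P1 embryo 3 with 123.5 CPM of Mesp1 had none.

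Snai1 had a different distribution, because Mesp1-negative cells carried it as well. It reached 10 CPM in 24 of 24 cells of E6.5 embryo 2, which ranged from 18.7 to 281 CPM with a median of 118.7. The Mesp1-positive cell of E6.75 embryo 1 had 71.7 CPM, and its 10 Mesp1-negative cells ranged from 0 to 84.8 CPM with a median of 0. In E6.75 embryo 2 the Mesp1-positive cells had 0, 25.3 and 26.9 CPM, and Mesp1-negative cells ranged from 0 to 90.2 CPM with a median of 11.2. The ranges overlapped in both embryos. Snai1 was at 0 in all 8 T cells of P1 embryo 3, Mesp1-positive or not. In the 8 cells of E6.5 embryo 2 below both limits it did not exceed 1.11 CPM.

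To compare the classes over embryos, the raw counts of same-class cells were added up within every embryo that had at least 3 such cells. This gave 3 Mesp1-positive sums (30 cells, from E6.5 embryo 2, E6.5 P1 embryo 3 and E6.75 embryo 2) and 3 Mesp1-negative sums (24 cells, from E6.5 P1 embryo 3 and E6.75 embryos 1 and 2). No gene other than T and Mesp1, which were not counted, passed an adjusted p of 0.05 with a log2 fold change over 1 in edgeR's quasi-likelihood test. Both directions stood at 0 of 10059 genes (0%), and 1.65% of the genes had an unadjusted p under 0.05. The spread between sums of the same class was wide, with a biological coefficient of variation of 85.8%. DESeq2, run on the same sums, called 6 genes as higher with Mesp1 (0.0564% of 10646) and 6 as lower (0.0564%). Of these 12 genes, Olfr1270, Olfr1508, Kcne2, Psca and Hsd17b1 had counts in a single sum, all from P1 embryo 3.

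The other 7 genes called by DESeq2 separated the 3 sums of each class without overlap, and none passed in edgeR, where each had an adjusted p of 0.999995. DESeq2 chose them on these same sums, so their separation is not a second observation. Of the 8365 genes with at least 20 CPM in a sum, 2.8% had all 3 Mesp1-positive sums above and 5.09% all below. F2r, the thrombin receptor, had 48.8, 50.6 and 33.9 CPM in the Mesp1-positive sums of E6.5 embryo 2, P1 embryo 3 and E6.75 embryo 2, and 1.25, 5.19 and 3.85 CPM in the Mesp1-negative sums of P1 embryo 3 and E6.75 embryos 1 and 2. These and the later levels of the 6 sums are CPM after TMM normalization and are given in that order, whereas the lower bounds of a fold are ratios of counts to total counts. Dclk1, a microtubule-associated kinase, had 34.7, 288 and 20.2 CPM against 5.00, 7.58 and 8.03 CPM. Rhbdd2, a protein of the rhomboid family, had 78.2, 260 and 49.5 CPM against 3.33, 17.4 and 14.4 CPM, and Arhgap44 had 11.1, 44.4 and 7.33 CPM against 0.833, 0.266 and 0.837 CPM. Lower with Mesp1 were Sepsecs, an enzyme of selenocysteine synthesis, at 9.17, 4.16 and 4.58 CPM against 43.3, 54.6 and 37.2 CPM, Herc6, a ubiquitin ligase, at 0.434, 0 and 0 CPM against 65.4, 12.8 and 13.7 CPM, and Gm14139 at 0.310, 0 and 0 CPM against 43.3, 4.92 and 11.9 CPM.

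Mesp2 had 85.7, 0 and 0 CPM in the Mesp1-positive sums and 0 in each Mesp1-negative sum. It was left out of the edgeR fit by the filter on low counts. With 1383 counts against none, and 3 counts as the least that the Mesp1-negative group allows, its level was at least 386-fold higher with Mesp1, a bound that rests on E6.5 embryo 2 alone. Without this embryo the sums held no Mesp2 at all. Snai1 had 100, 0 and 17.4 CPM against 0, 11.6 and 11.9 CPM, a log2 fold change of 2.33 (SE 1.77) that did not pass in edgeR's test (adjusted p = 0.999995). Without E6.5 embryo 2 it was 0.13.

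To describe groups of genes, levels of the sums were compared for the 8365 genes with at least 20 CPM in a sum, as differences of log2(CPM + 1). These are counts without a test. A gene could enter through E6.5 embryo 2 alone, as 282 genes did, and had then to be lower in the other sums, so the counts of a list in that embryo are partly set by the limit of 20 CPM. Among the 8083 genes that reached it in another sum, 2.75% stood at least 2-fold above every Mesp1-negative sum in E6.5 embryo 2. In E6.5 embryo 2, 374 genes (4.47%) were at least 2-fold above every Mesp1-negative sum and 1.66% at least 2-fold below every one. In both embryos with sums of both classes, 202 genes (2.41%) were at least 2-fold higher with Mesp1 and 572 (6.84%) at least 2-fold lower. In 234 genes (2.8%) the 3 Mesp1-positive sums were all above the 3 Mesp1-negative sums, and in 426 (5.09%) all below. Without the deepest Mesp1-positive cell of P1 embryo 3 these shares were 3.97% and 4.01%, so the larger number below was not seen without that cell. Within E6.5 embryo 2, 2016 genes (24.1%) were at least 2-fold higher in the sum of its 24 Mesp1-positive cells than in the sum of its 8 cells below both limits, and 552 (6.6%) at least 2-fold lower, on CPM without TMM, where the median difference over all genes was 0.35. With the 4 cells from wells not labelled double alone, the shares were 29.3% and 8.73%. These comparisons share sums with each other, and the last of them sets T cells against cells without T. The limit of 20 CPM was applied to the sums of T cells and not to the sum of those 8 cells. A gene high in those 8 cells alone could thus not enter, so the shares higher and lower in this last comparison are partly set by the limit.

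**Figure D3:**
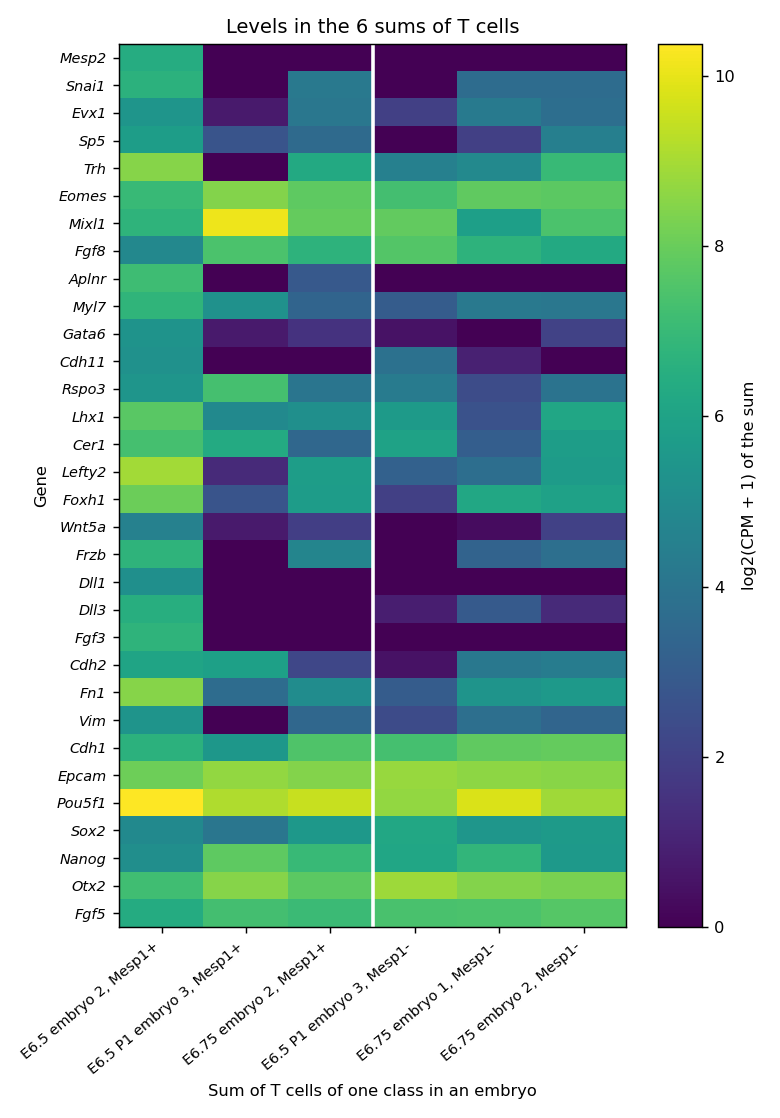
Level of 32 genes (rows) in the 6 sums of T cells (columns, Mesp1-positive on the left of the white line), coloured by log2(CPM + 1). The sum of E6.5 embryo 2 differs from the other 5 for Mesp2, Aplnr, Fgf3 and Dll1, which are at or near 0 elsewhere, while Eomes, Epcam and Pou5f1 are high in all 6.

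Among streak and nascent mesoderm regulators, E6.5 embryo 2 stood apart at 7 of the 16 genes described, which were Mesp2, Snai1, Lhx1, Evx1, Sp5, Trh and H2afy2, and was lower for Fgf8. Mesp2, Snai1, Evx1 and H2afy2 reached 20 CPM in that embryo alone, and 3 of the other 12 stood above. Among all genes described 4.47% stood above there, and 2.75% of those at 20 CPM in another sum. The study named several genes of this list from these cells, among them Snai1, Evx1, Greb1, Ncoa5, Eid1 and H2afy2, so the count is not independent evidence. None of the 16 differed by 2-fold in the same direction within both other embryos, and none of 18 tested was called by edgeR. Evx1, a homeobox factor of the posterior streak, had 41.1, 0.693 and 16.5 CPM against 2.92, 17.7 and 12.4 CPM. Sp5, a zinc-finger target of Wnt signalling, had 53.2, 5.55 and 10.99 CPM against 0, 2.92 and 21.1 CPM. Both were at 0 in the 8 cells of E6.5 embryo 2 below both limits. Tbx6, a T-box factor of paraxial mesoderm, was read in E6.5 embryo 2 alone, from 0 to 44.6 CPM with 7 of 24 cells at 10 CPM or more.

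Eomes, Mixl1 and Lhx1, which mark the streak and the early mesendoderm, were read in both classes. Eomes, a T-box factor that acts upstream of Mesp1, reached 10 CPM in all 59 cells and had 127.8, 345 and 223 CPM against 154.9, 231 and 214 CPM (log2 fold change 0.21, SE 0.44). Mixl1, a homeobox factor of mesendoderm, had 92.7, 959 and 1222 CPM in the Mesp1-positive cells of P1 embryo 3 and 77.3, 126.03, 203, 318 and 345 CPM in its Mesp1-negative cells. Within E6.75 embryo 2 it had 203, 257 and 313 CPM with Mesp1 and 13.8 to 887 CPM without (median 82.4). Its sums were 106.8, 1103 and 238 CPM against 234, 56.2 and 171.4 CPM (log2 fold change 1.65, SE 0.81), so that the sum of E6.5 embryo 2, the richest in Mesp1, was below 2 of the 3 Mesp1-negative sums. Without P1 embryo 3 its log2 fold change was 0.59. Lhx1, a LIM-homeobox factor of axial mesendoderm, had 208, 29.1 and 34.8 CPM against 48.7, 5.19 and 69.1 CPM (log2 fold change 1.16, SE 1.01). The direction for Eomes, Mixl1 and Lhx1 turned with the embryos included. Fgf8, a ligand of the streak, had 27.4, 170 and 104.4 CPM against 190, 102.6 and 77.3 CPM, and its direction turned too.

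Few cardiac and mesoderm progenitor genes were read at 20 CPM or more, since 18 of the 25 listed did not reach it or have a row. Of the 7 described, Aplnr, Gata6, Cdh11, Myl7 and Rspo3 stood at least 2-fold above every Mesp1-negative sum in E6.5 embryo 2. The first 3 of these reached 20 CPM there alone, and 2 of the other 4 genes stood above. Among all genes described 4.47% did, and 2.75% of those at 20 CPM in another sum. Aplnr, the apelin receptor of migrating mesoderm, ranged from 4.67 to 329 CPM in E6.5 embryo 2 with a median of 91.1 and reached 10 CPM in 23 of 24 cells. Outside that embryo it was read in 1 Mesp1-positive cell of E6.75 embryo 2, at 25.9 CPM, and it was at 0 in all 28 Mesp1-negative cells and in the 8 cells of embryo 2 below both limits. Its level in the sum of E6.5 embryo 2 was at least 752-fold above that of the Mesp1-negative cells. Gata6, a zinc-finger factor of mesendoderm and of the endoderm, had 38.9, 0.693 and 1.83 CPM against 0.417, 0 and 3.18 CPM. Myl7, an atrial myosin light chain, had 108.2, 37.4 and 9.16 CPM against 7.08, 17.5 and 16.1 CPM. Rspo3, a Wnt agonist, had 41.5, 159 and 15.6 CPM against 19.2, 4.39 and 14.6 CPM. No gene of the list was 2-fold higher with Mesp1 in both of the other embryos.

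Epithelial adhesion genes showed few differences. None of the 19 epithelial adhesion genes described was 2-fold below every Mesp1-negative sum in E6.5 embryo 2, with a median difference of -0.13. Cdh1, the E-cadherin of epithelia that Snai1 represses, had 101.3, 43.7 and 183.2 CPM against 158.3, 230 and 245 CPM (log2 fold change -0.95, SE 0.53, adjusted p = 0.999995 in edgeR). In E6.75 embryo 2 it had 181.2, 186.01 and 235 CPM with Mesp1 and from 89.3 to 353 CPM without, so the ranges overlapped. Epcam, an epithelial adhesion molecule, had 274, 413 and 352 CPM against 432, 391 and 371 CPM. Cgn, of tight junctions, was at least 2-fold lower in both embryos with both classes.

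Mesenchymal and migration genes differed between embryos. In E6.5 embryo 2, 6 of 18 stood above every Mesp1-negative sum (Cdh2, Cdh11, Vim, Fn1, Lhfp and Ifitm1) and none below. Cdh11, Vim and Lhfp reached 20 CPM there alone, and of the 14 genes at 20 CPM in another sum 3 stood above. Among all genes described 4.47% did, and 2.75% of those at 20 CPM in another sum. Fn1, the matrix glycoprotein fibronectin, had 362, 11.8 and 32.1 CPM against 7.08, 40.6 and 46.9 CPM. Cdh2, the N-cadherin of mesenchyme, had 65.3, 58.9 and 3.66 CPM against 0.417, 17.02 and 19.4 CPM, with 22 of 24 cells of E6.5 embryo 2 at 10 CPM or more. Vim, an intermediate filament, had 40.7, 0 and 10.1 CPM against 4.17, 12.8 and 9.54 CPM. In the embryos with both classes 5 genes of the list (Twist1, Itga5, Col4a1, Col4a2 and Lhfp) were at least 2-fold lower with Mesp1 and none was higher. Among all genes described, 6.84% were lower and 2.41% higher in both. The medians of the list were -1.10 in P1 embryo 3 and -0.57 in E6.75 embryo 2, beside -0.28 and -0.02 over all genes. Lhfp was thus above every Mesp1-negative sum in E6.5 embryo 2 and lower with Mesp1 in the other embryos.

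Epiblast and pluripotency genes were more often lower in E6.5 embryo 2, when set against the sums of other embryos, than genes at large. None of 21 was above and 3 were at least 2-fold below every Mesp1-negative sum there, namely Otx2, Fgf5 and Dppa5a. The median difference was -0.54. Over all genes, 1.66% were below in this way and the median difference was 0.07. Against the 8 cells of E6.5 embryo 2 below both limits, 4 of the 21 were at least 2-fold lower (Nanog, Utf1, Dppa3 and Dppa5a). There 3 were higher (Lin28b, Sall4 and Etv5), beside 6.6% lower and 24.1% higher of all genes described. Otx2 and Fgf5 were in neither group, and the median difference of the list was 0.02, beside 0.35 over all genes. Within P1 embryo 3 and E6.75 embryo 2 the medians of the list were -0.11 and -0.04, beside -0.28 and -0.02 over all genes. Pou5f1 ranged from 569 to 1879 CPM in the 24 Mesp1-positive cells of that embryo (median 1401) and from 656 to 1941 CPM in its 8 cells below both limits (median 1423). Its sums were 1325, 555 and 734 CPM against 412, 889 and 472 CPM. Otx2, a homeobox factor of the anterior epiblast, had 146.6, 356 and 218 CPM against 457, 350 and 314 CPM. Fgf5, a ligand of the primed epiblast, was lower in all 3 Mesp1-positive sums, at 83.1, 155.3 and 132.8 CPM against 167.4, 170 and 198 CPM, as were Etv5 and Foxd3. Of all genes described, 5.09% had all 3 Mesp1-positive sums below. Sox2, a factor of epiblast and neural fate, had 29.7, 15.9 and 44.9 CPM against 74.6, 42.1 and 48.7 CPM. Nanog, a pluripotency factor that returns in the posterior epiblast, went the other way in the embryos with both classes, at 223 against 69.1 CPM in P1 embryo 3 and 124.6 against 47.5 CPM in E6.75 embryo 2, but had 33.5 CPM in E6.5 embryo 2.

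Of the signalling pathways, Nodal genes included Lefty2, a secreted Nodal inhibitor. It ranged from 0 to 1305 CPM with a median of 298 in the 24 cells of E6.5 embryo 2 and from 0 to 122 CPM with a median of 45.2 in the 8 cells below both limits. In P1 embryo 3 it had 0, 0 and 6.35 CPM with Mesp1 and 0, 0, 1.40, 4.30 and 32.96 CPM without. Its sums were 483, 1.39 and 53.1 CPM against 8.33, 12.4 and 51.04 CPM (log2 fold change 2.91, SE 1.42, adjusted p = 0.999995 in edgeR). Without E6.5 embryo 2 the log2 fold change was 0.18. Of 13 Nodal and activin genes described, Lefty2, Cfc1, Foxh1 and Cer1 stood above every Mesp1-negative sum in E6.5 embryo 2 and none below. All 13 reached 20 CPM in another sum, and 2.75% of all such genes stood above. Cfc1 is a co-receptor, Foxh1 a transcriptional partner of the Smads, and Cer1 a secreted inhibitor. Nodal, the ligand, had 20.3, 47.8 and 47.6 CPM against 25.8, 75.1 and 26.3 CPM. Fst, a secreted inhibitor of activin, was higher in all 3 Mesp1-positive sums, at 216, 336 and 172.2 CPM against 97.05, 79.2 and 149 CPM. It was the only such gene of the 13, and 2.8% of all genes described had all 3 Mesp1-positive sums above.

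Of 23 Wnt genes described, 5 stood above every Mesp1-negative sum in E6.5 embryo 2 (Wnt5a, Nkd1, Frzb, Rspo3 and Sp5) and Lgr4 below. Wnt5a and Nkd1 were at 20 CPM there alone, and 3 of the other 21 stood above. Among all genes described 4.47% did, and 2.75% of those at 20 CPM in another sum. Wnt3, the ligand that sets up the streak, had 48.1, 225 and 33.9 CPM against 38.7, 60.5 and 38.2 CPM. Wnt5a, a ligand of the non-canonical pathway, had 22.4, 0.693 and 2.75 CPM against 0, 0.266 and 3.01 CPM, and the secreted inhibitor Frzb had 105.005, 0 and 25.7 CPM against 0, 8.91 and 12.9 CPM. Lef1, a nuclear effector, had 127.2, 13.2 and 60.5 CPM against 112.9, 54.8 and 33.5 CPM. Of 14 BMP genes, the ligand Bmp7 and the target Msx2, both at 20 CPM there alone, stood above. None of the 11 at 20 CPM in another sum did. Id2, a target, was higher in all 3 Mesp1-positive sums, at 90.1, 140.8 and 79.7 CPM against 22.9, 43.2 and 46.4 CPM. Among all genes described, 2.8% had all 3 Mesp1-positive sums above.

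Notch and FGF ligands were among the genes found in E6.5 embryo 2 alone. Dll1, a Notch ligand of presomitic mesoderm, ranged from 0 to 90.1 CPM there with a median of 36.7 and reached 10 CPM in 17 of 24 cells, and it was at 0 in all other T cells and in the 8 cells of that embryo below both limits. Dll3, a relative that acts within the cell, had 89.1, 0 and 0 CPM against 0.833, 6.65 and 1.34 CPM. Fgf3, an FGF ligand, ranged from 0 to 290 CPM with a median of 96.1, reached 10 CPM in 20 of 24 cells and was likewise at 0 in all other T cells. Against the Mesp1-negative cells the levels in the sum of embryo 2 were at least 185.9-fold higher for Dll1 and at least 569-fold for Fgf3. Of 18 FGF genes described, Fgf3 and Fgf15 stood above every Mesp1-negative sum in embryo 2 and Fgf5 and Fgf8 below, and of 9 Notch genes Dll1 and Dll3 stood above. Fgf3, Dll1 and Dll3 reached 20 CPM in that embryo alone. Of the genes at 20 CPM in another sum, 1 of 17 FGF genes and none of 6 Notch genes stood above, beside 2.75% of all such genes. Chosen after their values were seen, Wnt2, Pcdh8 and Klhl6 also had no count in any other sum, with 26.8, 24.3 and 23.9 CPM in embryo 2.

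Within E6.5 embryo 2, several genes that set this embryo apart varied together with Mesp1 from cell to cell. Spearman's rho with Mesp1 over its 24 Mesp1-positive cells was 0.85 for Mixl1, 0.77 for Lefty2, 0.75 for Fgf3, 0.71 for Mesp2, 0.68 for Dll1 and for Aplnr and 0.63 for Snai1. It was 0.13 for Eomes and -0.10 for Pou5f1, and negative for Cdh1 at -0.66. Summed visceral endoderm markers had a rho of -0.67, and total counts 0.24. The cell with 41453 CPM of endoderm markers, whose label of streak cell is uncertain, is among the 24. Without the 2 cells farthest from the median of Mesp1, rho was 0.85 for Mixl1, 0.72 for Lefty2, 0.70 for Mesp2, 0.53 for Snai1, -0.72 for Cdh1 and -0.75 for the endoderm markers. These cells come from 1 embryo and share its dissection and processing, so the values are a description of that embryo. Mixl1, whose direction between the classes turned with the embryos included, had the highest rho of the genes looked at within this one.

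**Figure D4:**
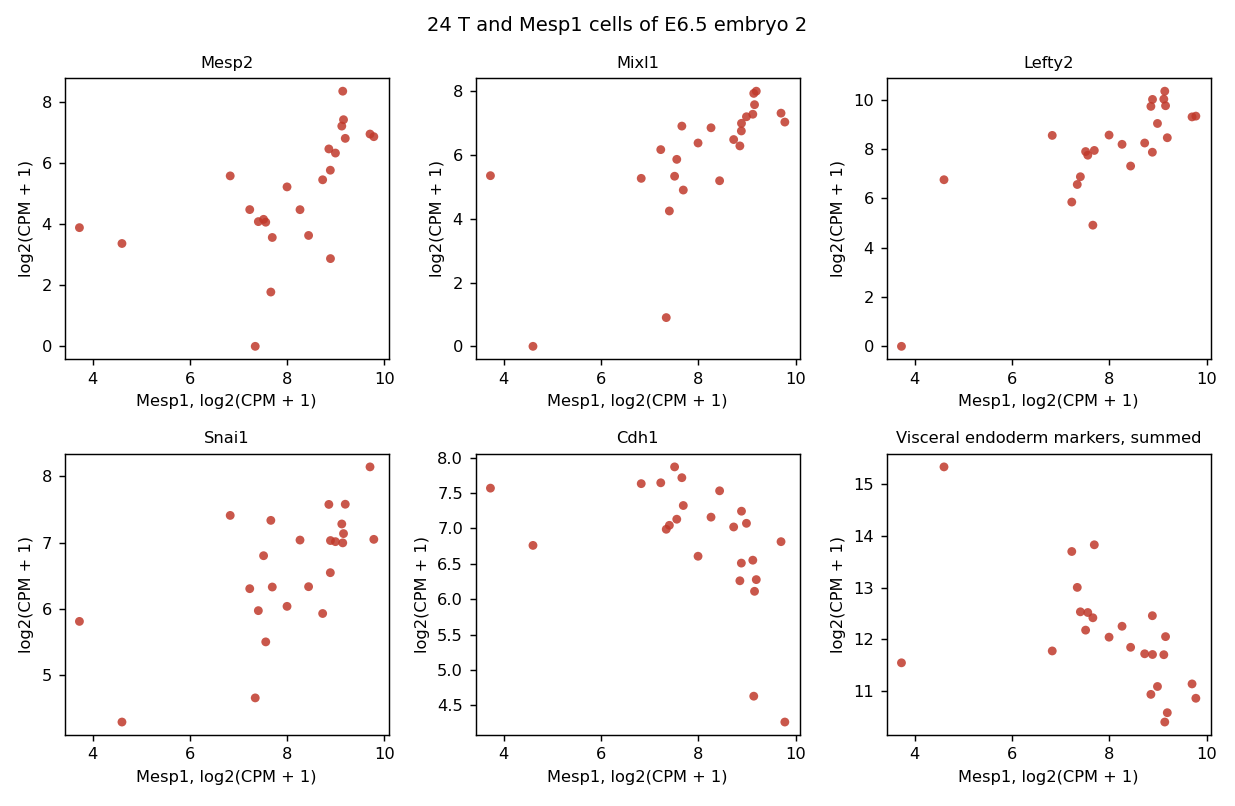
Mesp1 (x axes) against 5 genes and the sum of 13 visceral endoderm markers (y axes), all as log2(CPM + 1), with 1 point for each of the 24 T and Mesp1 cells of E6.5 embryo 2. Mesp2, Mixl1, Lefty2 and Snai1 increase with Mesp1 (Spearman's rho 0.63 to 0.85), and Cdh1 and the endoderm markers decrease (-0.66 and -0.67).

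In E6.75 embryo 2, where both classes could be set side by side within an embryo, other genes differed most. The 3 Mesp1-positive cells were compared with the 9 Mesp1-negative cells by the mean of log2(CPM + 1), and P1 embryo 3 served as a comparison. Of the 80 differences that the rule for named genes gave, 31 had the same sign in P1 embryo 3. Gsc, a homeobox factor of the anterior streak and organizer, was higher with Mesp1 by 2.16 and in P1 embryo 3 by 2.15, where it was read in 1 of 3 Mesp1-positive cells, at 85.7 CPM, and in no Mesp1-negative cell. Sall2, an epiblast zinc-finger factor, was higher by 2.06 and 2.65, Smad1, a BMP effector, by 3.25 and 1.38, and Frs2, an adaptor of FGF receptors, by 3.40 and 1.54. Cgn was lower, with differences of -2.17 and -2.99, and Cldn4, a claudin, with -2.43 and -0.80. Pdgfra, a receptor of mesoderm and endoderm, was higher by 2.73 but at 0 in all T cells of P1 embryo 3. Lgr4, an R-spondin receptor, was higher by 4.02 and by 0.04, and Acvr2b, an activin receptor, by 3.20 while it was lower in P1 embryo 3, at -2.97. With 3 cells in the smaller class, these differences describe 2 embryos, and cells of an embryo are not replicates for a test. The median number of genes detected was 8699 with Mesp1 and 7690 without in E6.75 embryo 2. In P1 embryo 3 it was 5667 with Mesp1 and 6475 without. The part of gene detection in these differences was not tested.

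By the share of cells with at least 10 CPM, the largest differences of the same sign in both embryos were for genes of no single group. Lmbrd1, of lysosomal cobalamin export, reached 10 CPM in 3 of 3 Mesp1-positive cells and in none of 9 Mesp1-negative cells of E6.75 embryo 2, and in 33.3% and 20% of cells of P1 embryo 3. Trim26, a ubiquitin ligase, reached it in 100% against 11.1% and in 66.7% against 40%. Slc35e1, a putative sugar transporter, reached it in 0% against 88.9% and in 0% against 20%, and Snx1, of endosomal sorting, in 0% against 77.8% and in 33.3% against 60%. In E6.5 embryo 2 the shares were 58.3% for Lmbrd1, 70.8% for Trim26, 79.2% for Slc35e1 and 91.7% for Snx1, so that Slc35e1 and Snx1 were not low in the embryo richest in Mesp1. With the cells of these embryos thinned to 200000 counts each, which left out 2 cells, the differences in share (E6.75 embryo 2, then P1 embryo 3) were 85.7 and 33.3 percentage points for Lmbrd1, 100 and 26.7 for Trim26, -85.7 and 13.3 for Slc35e1 and -52.4 and -26.7 for Snx1, so that Slc35e1 changed sign in P1 embryo 3.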

How the data were processed

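Picked cells were sequenced after G&T-seq amplification. The authors trimmed the reads and aligned them to GRCm38, kept primary alignments with mapping quality of at least 20, and deposited raw counts per gene and cell from SeqMonk, without normalization. The submitters' processing notes name Trim Galore 0.4.3 and HISAT2 2.0.5. The files analysed cover 24483 gene rows on chromosomes 1 to 19, and CPM were computed over these rows. Poorly detected cells and trophoblast cells had been removed upstream, so rare cells of those kinds are not represented. Stage, plate, embryo and well came from the titles.

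The members, the gene lists and the comparisons were chosen with earlier results of these data known. Counts were summed per class and embryo (at least 3 cells) and tested with edgeR 4.0.16 in R 4.3.3 (TMM normalization, low-count filter, quasi-likelihood test, Benjamini-Hochberg adjustment over all genes tested). Genes were called where the adjusted p did not exceed 0.05 and the log2 fold change exceeded 1 in size. DESeq2 1.42.0 was an alternative. The test was checked on simulated data. Nothing in the labels says that the embryos came from separate litters, so p-values measure the spread between these sums only. P1 embryo 3 and E6.75 embryo 2 each gave a sum of both classes, and the main test took those sums as independent and ignored their pairing. Levels in single cells were compared with Python 3.11.15, pandas 2.3.3 and scipy 1.17.1, as descriptions with a pseudocount of 1 CPM, and 3 counts were the least that a group at 0 was taken to allow.

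The genes named were Mesp2, Snai1, list members that carry the account of a list whatever their values, the 4 members of each list with the largest difference in the embryo with the most cells in its smaller class, any called genes, and those with the largest difference in share of cells. P1 embryo 3 and E6.75 embryo 2 tied with 3 cells, and E6.75 embryo 2, which had more cells in the other class, was used. Genes named because they stood apart in E6.5 embryo 2 or in all sums, those called by DESeq2 alone, and Lefty2, Fgf3, Fst, Id2, Evx1, Sp5 and Myl7 were chosen after their values were seen. The alternatives without cells high in endoderm markers, without the deepest Mesp1-positive cell of P1 embryo 3, with a pseudocount of 5 CPM, with genes of at least 50 CPM, without wells labelled double, and the thinned counts of genes for E6.5 embryo 2 were also chosen after seeing the data. Locations are from the GENCODE annotation of GRCm38 and promoters from RefSeq. A result for 1 gene is not reported here.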

Additional observations from a re-analysis of the deposited data

Results flagged for a closer look

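Among 21 sets of values (6 genes and the summed visceral endoderm markers, in the Mesp1-negative cells of the 3 embryos with 5 to 10 of them), 3 held a cell far from the others by Dixon's test. Its rate of about 1 of 20 sets by chance holds for normally distributed values, which CPM of single cells, with their zeros, need not be. Snai1 was at 0 in all Mesp1-negative cells of P1 embryo 3, so that set could not be flagged. The 3 sets are therefore not compared with that rate. In P1 embryo 3, 1 of 5 Mesp1-negative cells had 32.96 CPM of Lefty2 and the next 4.30 CPM, and 1 had 170.8 CPM of Pou5f1 where the next had 427 CPM. In E6.75 embryo 1, 1 of 10 Mesp1-negative cells had 327 CPM of Mixl1 and the next 102.2 CPM.

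Mesp1 was also read in cells left out because T was below 10 CPM. In P1 embryo 3, 3 such cells had 17.3, 24.3 and 31.6 CPM of Mesp1 with at most 4.99 CPM of T. In E6.75 embryo 2, 2 such cells had 12.4 and 38.97 CPM with no count of T. All 5 lacked Mesp2 and Aplnr and had 136.4 to 327 CPM of Eomes, and 1 of them, in E6.75 embryo 2, had 37.2 CPM of Snai1. In these embryos the cells with Mesp1 and without T were thus 3 beside 3 and 2 beside 3 with both, and E6.5 embryo 2 had none.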

How the results depend on the processing

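The number of genes called in either direction stayed at 0 in edgeR under all alternatives except that without a filter on low counts, with 52 higher and 3 lower, and DESeq2 called 6 and 6. A count of 0 says little where few sums are left, as with sums of at least 5 cells and Mesp1 of at least 20 CPM (1 Mesp1-positive sum), the cells titled E6.5 (1 Mesp1-negative sum) and the block (1 residual degree of freedom). The labels' embryo numbers do pair the classes of P1 embryo 3 and E6.75 embryo 2, because each pair of sums is 1 embryo, and the fit with the embryo as a block (2 against 2 sums) also called 0 genes. In that block Snai1 had a log2 fold change of 0.49, Lefty2 of -1.11, Lhx1 of -0.86 and Fgf8 of 0.14. Over the fits that leave out 1 embryo each, calls stayed at 0, and the log2 fold change ranged from 0.13 to 3.10 for Snai1, from 7.69 to 8.49 for the bound of Mesp2, from 0.18 to 4.55 for Lefty2, from 0.59 to 2.13 for Mixl1, from -0.35 to 0.50 for Eomes, from -0.36 to 2.17 for Lhx1 and from -0.58 to 0.15 for Fgf8, with the negative value of Eomes without P1 embryo 3 and those of opposite sign for Lhx1 and Fgf8 without E6.5 embryo 2. That embryo left out, and the block, leave no count of Mesp2 and so no bound, and tool, normalization and filter do not enter it. With sums of any number of cells Mixl1 stood at -0.35 and Lhx1 at -1.50, with sums of at least 5 cells Mixl1 at -0.55 and Eomes at -0.68, with Mesp1 of at least 20 CPM Mixl1 at -0.79 and Eomes at -0.77, and with embryos of no plate name Eomes at -0.35. In the cells titled E6.5 the bound of Mesp2 was 6.12 and Snai1 stood at 11.40, which rests on 1 Mesp1-negative sum with no count and is no bound. The cause of these turns was not tested.

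Shares of genes past 2-fold, in percent of the genes described, moved with the low end of the scale. With a pseudocount of 5 CPM, 1.48% were higher and 4.51% lower within both embryos with both classes, and 0.897% were below every Mesp1-negative sum in E6.5 embryo 2. Among the 5620 genes of at least 50 CPM, 2.22% were higher and 4.11% lower within both embryos, 3.1% were above and 1.55% below in E6.5 embryo 2, and 5.04% had all 3 Mesp1-positive sums below, with fewer genes in each case because fewer were described. Without the 5 cells high in endoderm markers 4.89% were above and 1.63% below in E6.5 embryo 2, and with cells thinned to the same counts 3.69% and 1.58%. Without the deepest Mesp1-positive cell of P1 embryo 3, 2.66% were higher and 5.97% lower within both embryos. Limits of 5 and 20 CPM for T and Mesp1 gave 32 and 25 Mesp1-positive cells. Depth limits the Mesp1-negative class, where 3 reads stood for 1.84 to 44.8 CPM.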

Other observations

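None of 20 S phase genes was 2-fold above or below every Mesp1-negative sum in E6.5 embryo 2, with a median difference of -0.13, and Pcna, the clamp of the replication fork, was lower in all 3 Mesp1-positive sums, at 322, 393 and 352 CPM against 457, 467 and 406 CPM. Cdc45, a replication factor, was at least 2-fold lower with Mesp1 in both embryos with both classes, as were Msx1 of the BMP list, Fgf10 of the FGF list and Jag1 of the Notch list. Fgf17 of the FGF list, Hes1 of the Notch list and Gdf1 of the Nodal list went the other way, at least 2-fold higher in both. Over all genes, 6.84% were lower and 2.41% higher by this measure. Of 20 G2 and M phase genes, Plk1 and Cdc20 stood above in E6.5 embryo 2, where 4.47% of all genes described did, and Nusap1 was 2-fold higher in both other embryos. The median difference of these genes was -0.05 in E6.5 embryo 2, 0.77 in P1 embryo 3 and 0.40 in E6.75 embryo 2, beside 0.07, -0.28 and -0.02 over all genes. Plk1, a mitotic kinase, was higher in all 3 Mesp1-positive sums, at 285, 216 and 167.7 CPM against 117.9, 138.005 and 104.1 CPM. Among all genes described, 2.8% had all 3 Mesp1-positive sums above and 5.09%, as Pcna did, all below. Cdc20, an activator of mitotic exit, had 512, 29.1 and 195 CPM against 150, 232 and 136.1 CPM. Of 9 G1 cyclins and inhibitors, Cdkn1c and E2f1 stood above. No gene of these lists was called by edgeR.

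Of 15 Polycomb genes, Phc2 alone stood above every Mesp1-negative sum in E6.5 embryo 2, at 92.5, 1.39 and 5.497 CPM against 1.67, 28.6 and 27.6 CPM. The median difference was -0.01, and 4.47% of all genes described stood above there. Suz12, Ezh2 and Jarid2, which belong to or join Polycomb repressive complex PRC2, were not called. Suz12 had 36.1, 40.2 and 89.8 CPM against 68.7, 91.2 and 105.3 CPM, Ezh2 171.3, 435 and 181.4 CPM against 134.5, 201 and 191 CPM, and Jarid2 102.1, 782 and 110.9 CPM against 462, 110.4 and 137.7 CPM.

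Of 7 axial mesendoderm and definitive endoderm genes, Lhx1, Sox17 and Cer1 stood above every Mesp1-negative sum in E6.5 embryo 2 and Otx2 below. Among all genes described, 4.47% stood above and 1.66% below there. Foxa2, a forkhead factor of endoderm and the axial midline, had 26.5, 15.9 and 10.99 CPM against 4.17, 3.32 and 25.6 CPM. Of 18 visceral endoderm markers of the longer list, Sox17 and Gata6 stood above and Lrp2 below there, and Apoa4, Rbp4 and Dab2 were 2-fold lower with Mesp1 in both embryos with both classes. None of the 2 germ cell genes, 3 extraembryonic ectoderm markers or 1 neural gene described stood above or below, and no blood or endothelial marker reached 20 CPM in a sum. Of the genes named here as standing above, Sox17, Gata6 and E2f1 reached 20 CPM in E6.5 embryo 2 alone.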
